A study of Homo sapiens with 4 samples.

Results

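The promoters of 8 genes that encode mesodermal basic helix-loop-helix (bHLH) factors, namely HAND1, HAND2, MESP1, MESP2, MSGN1, TCF15, TCF21 and TAL1, were examined for H3K27me3 and H3K4me3 in JMJD3c-hESCs. They were taken by gene symbol from a table of 20242 promoters, and all 8 were found, each with 1 row. JMJD3c-hESCs are a derivative of SEES-3, a human embryonic stem cell line, that constantly expresses the reverse Tet-transactivator. They carry a piggyBac construct from which doxycycline (Dox) switches on JMJD3c, the tagged catalytic part of the H3K27 demethylase JMJD3. Stable clones had been selected with puromycin, and the number of clones behind the libraries is not given in the sources used here. Untreated cells (−Dox) and cells given Dox at 1 µg/ml (+Dox) were grown in the same StemFit AK-03 medium and both collected on day 3. Chromatin immunoprecipitation sequencing (ChIP-seq) was performed once for each mark and condition, so there were 4 libraries in 4 groups of 1. No difference below has a replicate check. The −Dox cells carry the same construct, so an effect of Dox itself and an effect of JMJD3c cannot be told apart in these libraries.

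H3K27me3 is the mark left by Polycomb repressive complex 2, and in pluripotent cells it covers CpG-rich promoters of developmental regulators that are silent or nearly so. H3K4me3 marks active or poised promoters, and a promoter with both marks is called bivalent. The bHLH factors studied here bind E-box sequences as dimers, mostly with the ubiquitous E proteins, and each is known for a different branch of the mesoderm. MESP1 and MESP2 act in nascent mesoderm and in the segmentation of somites, MSGN1 and TCF15 in paraxial mesoderm and somites, HAND1 and HAND2 in the heart and limb, TCF21 in the epicardium and in visceral mesenchyme, and TAL1 in blood and its endothelial precursors.

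Because Polycomb marking is known to follow CpG-rich sequence, the 250 bases before the start are shown for members that differ in their marks. HAND1 and HAND2 had the most H3K27me3, TAL1 and TCF21 an intermediate amount and MSGN1 hardly any. The letters come from the RefSeq promoter table, which lists GRCh38.p14 and holds 6 of the 8 genes, with MESP1 and TCF15 absent. Positions were found by an exact match of the same letters in GRCh37, the assembly behind hg19, and the sequences are written 5′ to 3′ along the gene with each CG dinucleotide in capitals.
HAND1 (GRCh37, minus strand, chr5:153857788-153858037): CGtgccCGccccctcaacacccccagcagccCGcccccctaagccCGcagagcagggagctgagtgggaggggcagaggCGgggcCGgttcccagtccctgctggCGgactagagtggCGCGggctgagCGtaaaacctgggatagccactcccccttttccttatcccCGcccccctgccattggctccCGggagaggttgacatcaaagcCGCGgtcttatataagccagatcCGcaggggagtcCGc
HAND2 (GRCh37, minus strand, chr4:174451381-174451630): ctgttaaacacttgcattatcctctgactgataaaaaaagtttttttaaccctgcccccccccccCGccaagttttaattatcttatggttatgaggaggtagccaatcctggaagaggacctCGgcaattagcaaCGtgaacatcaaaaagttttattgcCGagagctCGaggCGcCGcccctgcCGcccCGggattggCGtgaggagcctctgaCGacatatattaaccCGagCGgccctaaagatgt
TAL1 (GRCh37, minus strand, chr1:47697388-47697637, the start used in the deposited values): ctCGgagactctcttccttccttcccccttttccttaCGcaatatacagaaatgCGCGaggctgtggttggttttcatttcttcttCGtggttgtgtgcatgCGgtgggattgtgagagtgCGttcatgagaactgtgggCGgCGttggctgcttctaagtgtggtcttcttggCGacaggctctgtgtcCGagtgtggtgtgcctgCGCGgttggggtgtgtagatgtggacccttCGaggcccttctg
TCF21 (GRCh37, plus strand, chr6:134210001-134210250): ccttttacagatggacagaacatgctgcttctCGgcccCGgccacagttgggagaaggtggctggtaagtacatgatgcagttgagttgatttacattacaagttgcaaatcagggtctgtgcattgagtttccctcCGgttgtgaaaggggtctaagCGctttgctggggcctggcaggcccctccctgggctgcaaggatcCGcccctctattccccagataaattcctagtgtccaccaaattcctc
MSGN1 (GRCh37, plus strand, chr2:17997477-17997726): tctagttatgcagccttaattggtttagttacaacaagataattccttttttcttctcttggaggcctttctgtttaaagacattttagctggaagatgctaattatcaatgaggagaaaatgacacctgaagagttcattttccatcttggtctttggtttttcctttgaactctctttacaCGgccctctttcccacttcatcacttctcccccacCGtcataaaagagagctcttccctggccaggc

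HAND1 held 16 CG dinucleotides in these 250 bases, HAND2 13, TAL1 14, TCF21 5 and MSGN1 2. At least as many were found in 41.0% of the promoters in the table for HAND1, in 65.7% for TCF21 and in 85.3% for MSGN1, and the median promoter held 11. The E-box CANNTG, which reads the same on both strands, occurred 3 times before TCF21, once before HAND2 and once before MSGN1. It was absent from the stretches printed for HAND1 and TAL1. A second TAL1 entry, for a start 620 bp from the deposited one, held 24 CG dinucleotides and 1 E-box. The E-box was present in 61.8% of all promoters of this length, and 1 of its forms, CACGTG, also contains a CG. These matches describe the letters only.

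Each deposited value is ngs.plot coverage around 1 transcription start per gene, the sum over 3 kb on either side, and the authors scaled it to library reads. Within a library the values rose in whole steps of constant size, and the step sizes implied between 2629351 and 3509244 reads per library. The step was 0.373 in both +Dox libraries, which would mean the same 2682085 reads in 2 separate immunoprecipitations. Whether one of them was scaled with the read number of the other is not given in the sources used here and was not tested. Such a factor would move all ratios of a mark alike, and it would leave ranks within a library and the comparisons between members unchanged. A value of 20 stood for about 15.8 to 20.6 reads, depending on the library. Of 9 pluripotency genes, 8 had H3K4me3 above 20 and H3K27me3 below 20 in −Dox cells. The exception was POU5F1, for which the table uses a start 10049 bp away from the canonical start. H3K4me3 alone was above 20 at 10980 of the 20242 promoters. In +Dox cells 8 of the 9 genes were again above 20 for H3K4me3 and none for H3K27me3. The count therefore does not establish stem cell identity.

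The first question was which of the bHLH promoters carried each mark before induction. A promoter was called bivalent when both values were above 20, the threshold of the study's methods, and 5 of the 8 promoters met it in −Dox cells. The 5 were HAND1, HAND2, TAL1, TCF21 and TCF15. Over all promoters 9.42% were bivalent. The other three were unmarked by the same threshold. MESP1 lay just outside it, at 17.5 for H3K27me3 and 16.8 for H3K4me3, whereas TCF15 and HAND2 lay just inside for H3K4me3, at 20.2 and 21.7. These H3K4me3 values rest on about 17 to 22 reads each, and their counting intervals all span 20.

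The H3K27me3 levels of the 8 promoters covered a wide range. In the −Dox library the order from high to low was HAND1, HAND2, TAL1, TCF21, TCF15, MESP1, MSGN1 and MESP2. All windows have the same length, so the levels can be set side by side. HAND1 and HAND2 could not be separated, as the ratio of their levels was 1.06 with a 95% counting interval of 0.849 to 1.33. Each step from HAND2 down to MESP1 was larger than counting error, while the steps from MESP1 to MSGN1 and from MSGN1 to MESP2 were not. In the +Dox library HAND1, HAND2, TAL1, TCF21 and TCF15 stood in the same order, and each step below TCF15 lay within counting error. H3K4me3 covered a narrower range, from 2.56 to 40.7 in −Dox cells beside 2.66 to 208 for H3K27me3. It rested on fewer reads at HAND1, HAND2 and TAL1, so steps of a similar size were harder to separate there. In −Dox cells only the step from MESP1 to MESP2 among the 7 neighbouring steps exceeded counting error. The highest H3K4me3 value in −Dox cells, 40.7 at TCF21, was just below the median of all promoters, 41.3. In +Dox cells the step from HAND2 to MSGN1, a ratio of 2.67 (1.00 to 8.26), was the only one beyond counting error.

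**Figure D1:**
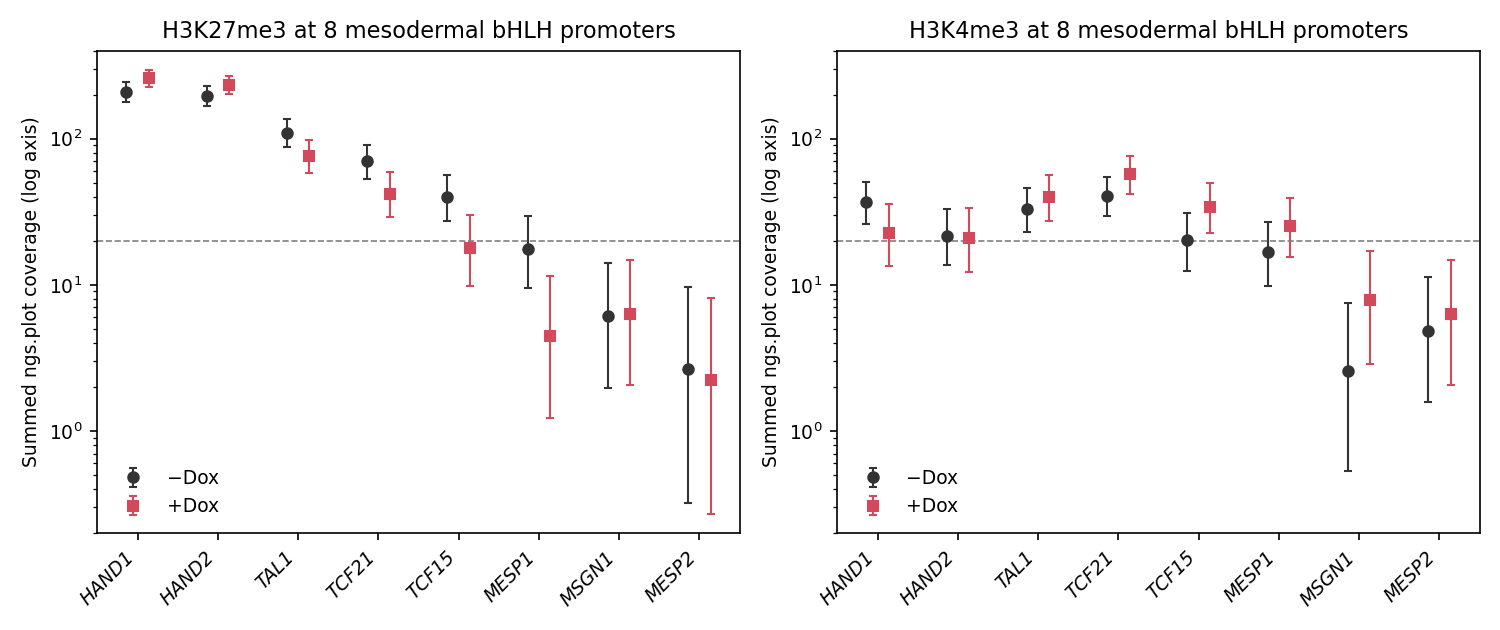
H3K27me3 (left) and H3K4me3 (right) at the 8 promoters, as summed ngs.plot coverage on a log axis, with −Dox as black circles and +Dox as red squares, 1 library each. Bars are 95% exact Poisson intervals of the approximate reads and cover counting error only, and the dashed line marks the threshold of 20. For H3K27me3 the red squares of HAND1 and HAND2 lie above the black circles, at 259 and 233, and those of TAL1, TCF21, TCF15 and MESP1 lie below them.

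The position of each gene was fixed by the deposited transcript. HAND1 (ENSG00000113196) lies on chromosome 5, window 153854787 to 153860787, and HAND2 (ENSG00000164107) on chromosome 4, window 174448380 to 174454380. TAL1 (ENSG00000162367) lies on chromosome 1, window 47694387 to 47700387, where the start in use differs from the canonical start by 510 bp. TCF21 (ENSG00000118526) is on chromosome 6, window 134207251 to 134213251, and TCF15 (ENSG00000125878) on chromosome 20, window 587953 to 593953. MESP1 (ENSG00000166823) is on chromosome 15, window 90291480 to 90297480, and MSGN1 (ENSG00000151379) on chromosome 2, window 17994727 to 18000727. Each window holds the upstream flank and the first 3 kb downstream of the start. MESP2 (ENSG00000188095) needs a caution. Its deposited transcript starts 15741 bp before the canonical start, so the window on chromosome 15 from 90300822 to 90306822 lies between MESP1 and the main promoter of MESP2, which it does not contain. The values listed for MESP2 therefore describe that upstream region.

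The heart factors HAND1 and HAND2 were the strongest Polycomb-marked members. HAND1, a regulator of the left ventricle and of extraembryonic mesoderm, had H3K27me3 values of 208 in −Dox and 259 in +Dox and H3K4me3 values of 36.8 and 22.7. H3K27me3 thus ranked 51st of 20242 promoters before and 38th after induction. Relative to library reads, H3K27me3 at HAND1 rose by a ratio of 1.24 (95% counting interval 1.01 to 1.54), on about 164 and 208 reads. The H3K4me3 ratio was 0.619 (0.332 to 1.11), on about 38 and 18 reads, so the lower value was not outside counting error. HAND2, a regulator of the right ventricle, limb and branchial arches, had H3K27me3 values of 196 and 233 and H3K4me3 values of 21.7 and 20.9. The H3K27me3 ratio of HAND2 was 1.19 (0.956 to 1.48), and its interval lay above 1 only after either rescaling of the libraries. The rank of HAND2 went from 71 to 61. Its H3K4me3 ratio was 0.964 (0.481 to 1.90).

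Ratios above 1 were common at this level of H3K27me3. Of the 174 promoters with an H3K27me3 value of 150 or more in −Dox cells, a limit set with the HAND values known, 60.9% had a ratio above 1 and 25.3% an interval above 1. Among all bivalent promoters 12.4% had a ratio above 1 and 2.15% an interval above 1. HAND1 stood above 95.5% and HAND2 above 94.2% of bivalent promoters in the H3K27me3 ratio. Since values are relative to all reads of a library, a genome-wide loss of the mark is not visible in these ratios. The paper reports such a loss, as immunoblots of the Dox-treated cells showed a significant reduction of H3K27me3. A ratio above 1 therefore describes a larger share of the library reads. Whether HAND1 or HAND2 gained or lost the mark in absolute amount was not tested.

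TAL1 and TCF21 lost part of their H3K27me3 and remained bivalent. TAL1, a factor needed for all blood lineages, had H3K27me3 values of 110 and 76.4 and H3K4me3 values of 33.1 and 39.9. H3K27me3 at TAL1 fell by a ratio of 0.695 (0.493 to 0.976), and the H3K4me3 ratio was 1.21 (0.721 to 2.02). TCF21, a factor of epicardial and visceral mesenchyme, had H3K27me3 values of 70.0 and 42.1 and H3K4me3 values of 40.7 and 57.4. Its H3K27me3 fell by a ratio of 0.602 (0.381 to 0.940) on about 55 and 34 reads. H3K4me3 at TCF21 was the highest of the 8 genes in both conditions, with a ratio of 1.41 (0.907 to 2.19). In H3K27me3 ratio TAL1 stood above 65.3% and TCF21 above 53.7% of bivalent promoters, so both were near the middle of that class. In H3K4me3 ratio they stood above 88.0% and 96.6% of it. When both H3K27me3 libraries were scaled to the same total, the intervals of TAL1 and TCF21 included 1, and with scaling over low promoters that of TAL1 did.

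TCF15 and MESP1 had the lowest H3K27me3 ratios. TCF15, also called paraxis, which acts in the epithelial organization of somites, had H3K27me3 values of 39.9 and 17.9 and H3K4me3 values of 20.2 and 34.3. H3K27me3 fell by a ratio of 0.448 (0.220 to 0.868), on about 31 and 14 reads. By the threshold of 20 the promoter changed from bivalent to H3K4me3-only. Such a change of class was seen at 39.1% of the bivalent promoters, and 51% stayed bivalent as HAND1, HAND2, TAL1 and TCF21 did. The H3K4me3 ratio of TCF15 was 1.70 (0.923 to 3.15), above 99.1% of bivalent promoters. MESP1, an early marker of cardiac and other nascent mesoderm, had H3K27me3 values of 17.5 and 4.47 and H3K4me3 values of 16.8 and 25.4. H3K27me3 fell by a ratio of 0.256 (0.0613 to 0.814), which rests on about 14 reads against 4. By the same threshold MESP1 passed from unmarked to H3K4me3-only, with an H3K4me3 ratio of 1.51 (0.750 to 3.07). The H3K4me3 intervals of MESP1, 9.79 to 26.9 in −Dox and 15.5 to 39.2 in +Dox, both span 20. Its H3K27me3 rank dropped from 2486 to 13608, while its H3K4me3 rank went from 13199 to 12010. The TCF15 interval for H3K27me3 included 1 after scaling to the same total, and that of MESP1 stayed below 1 under both rescalings.

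MSGN1 and the upstream region of MESP2 carried neither mark. MSGN1, a regulator of presomitic mesoderm, had H3K27me3 values of 6.09 and 6.34, close to the medians of all promoters, 6.09 and 5.97. Its H3K4me3 values were 2.56 and 7.83, about 3 and 6 reads, a ratio of 3.05 with an interval of 0.652 to 18.9. A change of either mark at MSGN1 was not detectable at this depth. The region listed for MESP2 had H3K27me3 values of 2.66 and 2.24 and H3K4me3 values of 4.84 and 6.34, about 2 to 5 reads each. These numbers allow no statement on MESP2 itself.

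Counted over the members, H3K27me3 had an interval below 1 at 4 of the 8 promoters (background over all promoters 6.98%) and above 1 at 1 (background 1.57%). Of the 5 bivalent members, 3 had an interval below 1, near the 48% of all bivalent promoters. A ratio below 0.5 was found at 2 of the 8 (background 21.5%), and at 1 of the 5 bivalent members beside 40.8% of the bivalent class. A ratio above 1 was found at 3 of the 8 (background 43.4%) and one above 2 at none (background 14.7%, and 0.0524% of bivalent promoters). The median log2 H3K27me3 ratio was −0.39 over the 8 members, −0.14 over all promoters and −0.81 over bivalent promoters. For H3K4me3 none of the 8 intervals excluded 1, where the background was 2.94% below and 1.7% above, and 9.86% and 1.57% among bivalent promoters. No H3K4me3 ratio was below 0.5 (background 5.33%, and 4.3% of bivalent promoters), and MSGN1 alone was above 2 (background 6.09%, and 0.157% of bivalent promoters). H3K4me3 was nominally higher in +Dox at 6 of the 8, beside 47.4% of all promoters, and at 3 of the 5 bivalent members, beside 32.4% of that class. The median log2 H3K4me3 ratio was 0.44 over the members, −0.02 over all promoters and −0.18 over bivalent promoters. The bulk libraries cannot tell fewer marked cells from less of the mark in each cell.

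The changes of the members were then compared with one another, by ratios of ratios, which do not depend on how the libraries were scaled. Of the 28 pairs of members, 8 differed in H3K27me3 change with an interval of the ratio of ratios that excluded 1. Every one of the 8 set HAND1 or HAND2 against TAL1, TCF21, TCF15 or MESP1. The change at TAL1 was 0.559 of that at HAND1 (conditional exact interval 0.373 to 0.838), and at TCF15 it was 0.360 of that at HAND1 (0.172 to 0.727). HAND1 and HAND2 were not separable, at 0.957 (0.704 to 1.30). TAL1, TCF21, TCF15 and MESP1 were not separable from one another, with the widest contrast, MESP1 against TAL1, at 0.368 (0.0845 to 1.25). The 28 intervals were not adjusted for their number. Within each library, of the H3K27me3 summed over the 8 promoters, the HAND pair held 62.2% in −Dox and 76.7% in +Dox cells. The total itself does depend on scaling. It was 650 in −Dox and 642 in +Dox as deposited, a ratio of 0.987 (0.871 to 1.12), but the ratio was 1.16 with both libraries at the same total and 1.05 with scaling over low promoters. For H3K4me3, 2 of the 28 pairs differed, HAND1 against TCF15 at 0.365 (0.152 to 0.873) and HAND1 against TCF21 at 0.439 (0.204 to 0.932). The HAND pair held 33.1% of the summed H3K4me3 in −Dox and 20.3% in +Dox cells, while that total went from 177 to 215, a ratio of 1.22 (0.981 to 1.51).

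**Figure D2:**
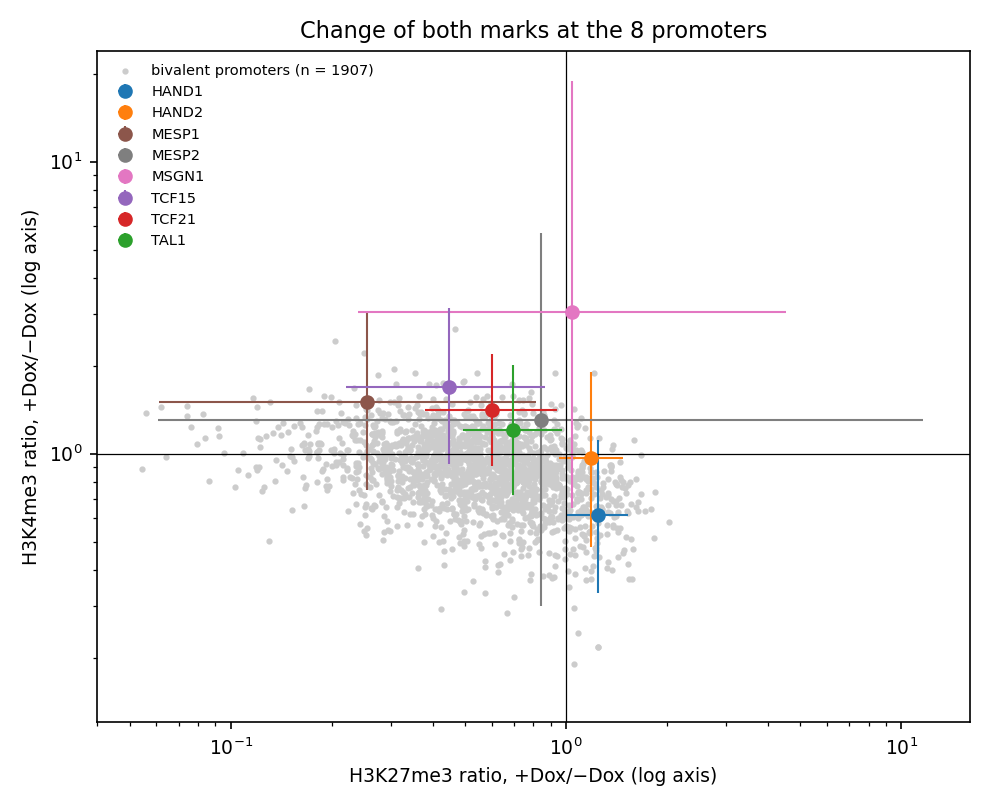
The +Dox/−Dox ratio of H3K27me3 (horizontal) against that of H3K4me3 (vertical), both on log axes, for the 8 promoters in colour over the 1907 bivalent promoters in grey. Bars are 95% counting intervals from 1 library per group. HAND1 and HAND2 lie at the lower right, and MESP1, TCF15, TCF21 and TAL1 lie at the upper left, with H3K27me3 ratios from 0.256 to 0.695 and H3K4me3 ratios from 1.21 to 1.70.

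The values of both marks were then read together. A nominally lower H3K27me3 value with a higher H3K4me3 value was found at 5 of the 8, MESP1, MESP2, TCF15, TCF21 and TAL1, beside 26.6% of all promoters. It was found at 3 of the 5 bivalent members, beside 31.1% of bivalent promoters. The opposite arrangement, more H3K27me3 with less H3K4me3, was found at HAND1 and HAND2, beside 11.1% of bivalent promoters. The H3K4me3 part of each of these arrangements lay within counting error, and so did the H3K27me3 part at HAND2 and MESP2, where the MESP2 region had 2 reads in each H3K27me3 library.

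Over MESP1, TCF15, TCF21, TAL1, HAND2 and HAND1, the H3K27me3 ratio followed the order of the −Dox level, from MESP1 at 0.256 up to HAND1 at 1.24. Only the HAND pair was separable from the rest of these in its change. MSGN1 and the MESP2 region, at lower levels, had ratios of 1.04 and 0.840 and did not follow the order. The −Dox value is itself the denominator of the ratio, and each of these points comes from the same 2 libraries. The order therefore stands as a description.

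**Figure D3:**
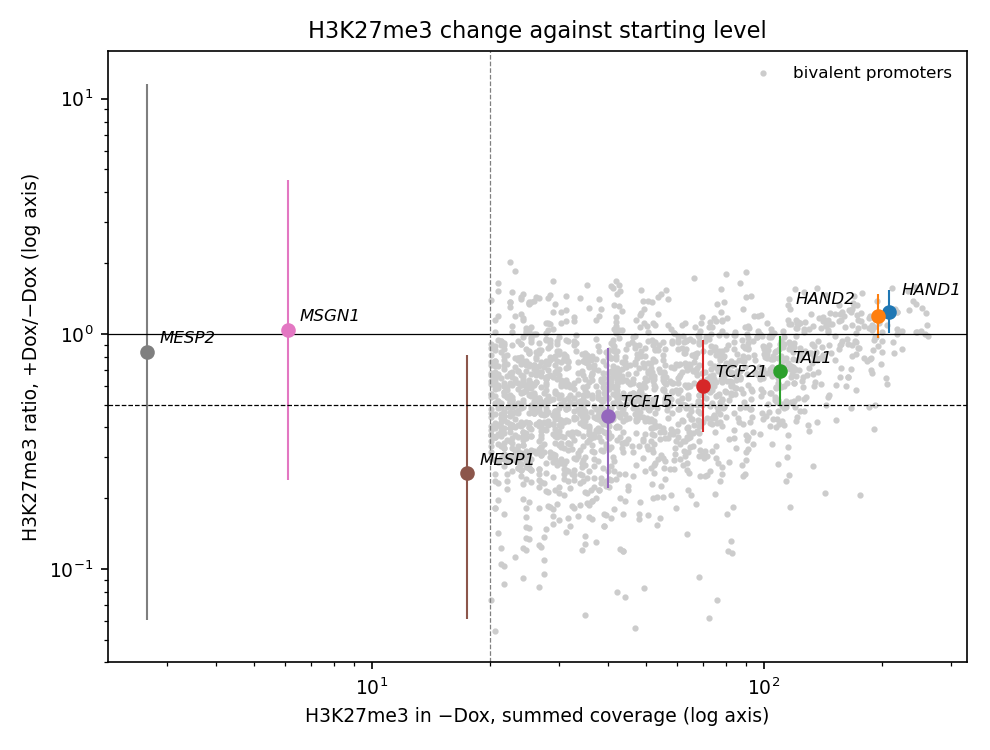
H3K27me3 in −Dox cells (horizontal, summed coverage) against the +Dox/−Dox ratio of H3K27me3 (vertical), both on log axes, for the 8 promoters over the bivalent promoters in grey. Bars are 95% counting intervals, and dashed lines mark a level of 20 and a ratio of 0.5. From MESP1 to HAND1 the ratios climb from 0.256 to 1.24, while the bars of MSGN1 and MESP2, on about 2 to 5 reads, span most of the axis.

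The base composition of the windows was compared next, as a property the choice of genes did not use. The 6 kb windows held 303 CG dinucleotides at HAND1, 320 at HAND2, 244 at TAL1, 236 at TCF15, 235 at MESP1, 154 at TCF21, 96 at the MESP2 region and 57 at MSGN1. Over the 18216 promoters with a window sequence the median was 156, and over the bivalent ones among them it was 219. Windows with at least as many as HAND2 made up 4.16% of the 18216, and those with at least as many as MSGN1 89.3%. The HAND genes thus led in both CG number and H3K27me3, and MSGN1 and the MESP2 region had the least of both. Within each of these pairs the order was reversed, and the MESP2 region does not contain the main promoter of MESP2. TCF21 also departed from the order of CG number, with more H3K27me3 than TCF15 and MESP1 on fewer CG dinucleotides and a GC content of 45.5%.

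Whether the marks at the bHLH genes were shared by the genes around them was examined within 100 kb of each start. There were 17 such genes with a mapped transcript apart from the members themselves, and none of their windows overlapped that of a member. Their H3K27me3 in −Dox cells ranged from 3.80 to 25.5 with a median of 9.51. Of the 17, 2 were above 20 for H3K27me3 and 12 for H3K4me3. Over the 20242 promoters, 2226 were above 20 for H3K27me3 and 12887 for H3K4me3, so both counts lay near the whole-table shares. HAND2 had no neighbour with a mapped transcript within that distance, and genes without a mapped transcript could not be searched. The single mapped neighbour of HAND1, SAP30L, had H3K27me3 values of 5.70 and 14.5, and that of TCF21, TBPL1, had 3.80 and 8.58. Near TAL1 the genes STIL, PDZK1IP1 and CYP4A22 had −Dox values of 7.23, 3.80 and 9.13. The listed neighbours of HAND1, TAL1 and TCF21 thus all lay below 20 in both conditions, although HAND1 and TCF21 have 1 each, and nothing can be said for HAND2. The pair above 20, named after the values were seen, lay near MSGN1 and TCF15. They were KCNS3, 62.2 kb from MSGN1, and a gene listed as ENSG00000270299, 65.5 kb from TCF15. KCNS3, a potassium channel gene, fell in H3K27me3 from 25.5 to 7.46, with a ratio of 0.293 (0.0962 to 0.756). The gene near TCF15 had values of 21.7 and 17.5, and it starts 2 bp from SCRT2, so the reads of the pair cannot be told apart. MESP1 and the deposited start of MESP2 lie 9.34 kb apart in opposite orientation, and MESP1 was the higher for both marks in both conditions.

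**Figure D4:**
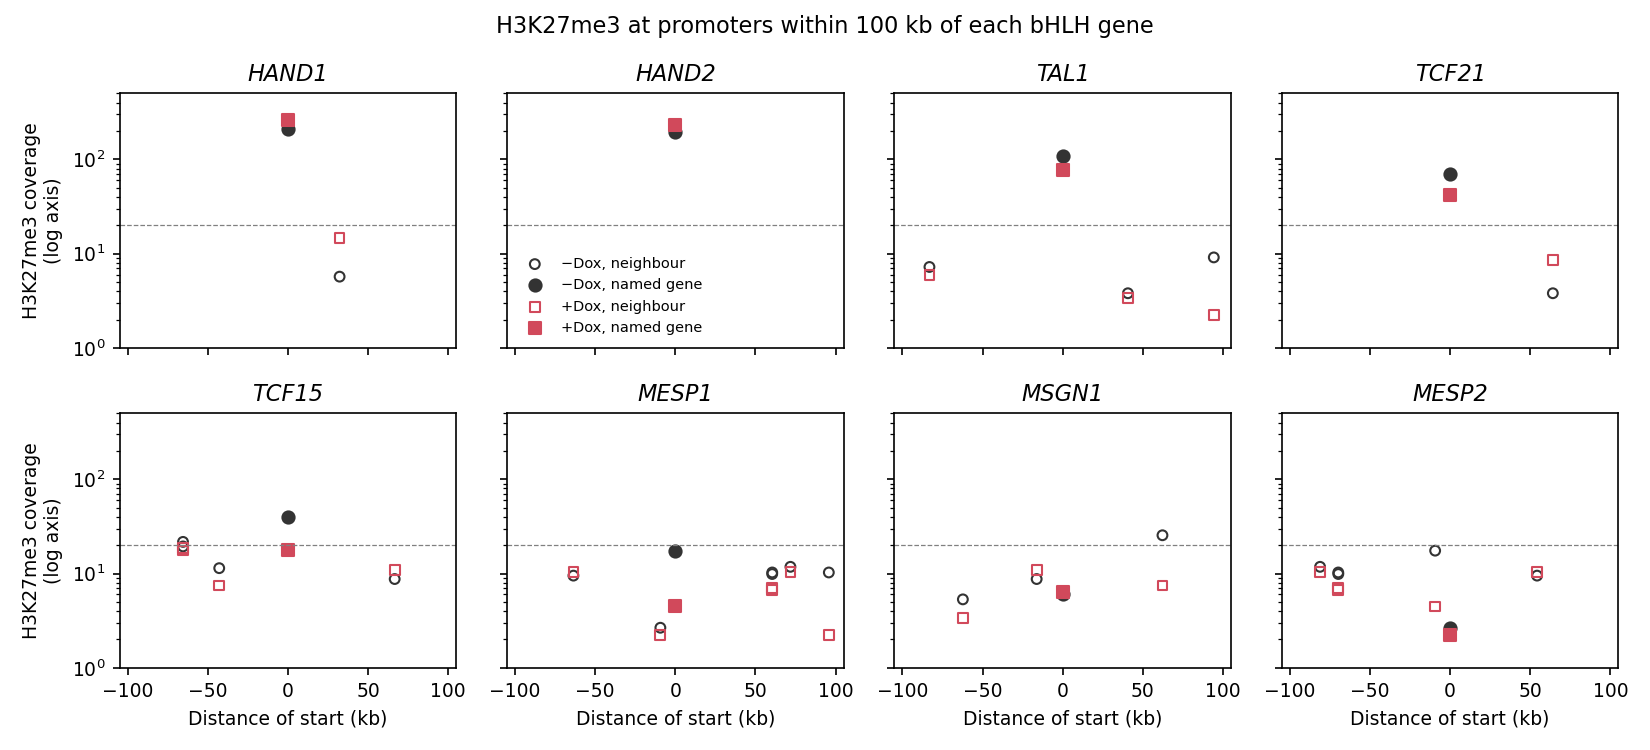
H3K27me3 (log axis, summed coverage) at each of the 8 genes (filled, at 0) and at the promoters of neighbouring genes (open), by distance of their start in kb along the direction of transcription of the named gene. Circles are −Dox and squares +Dox, 1 library each, and the dashed line marks 20. Mapped neighbours of HAND1, TAL1 and TCF21 lie between 2.24 and 14.5, far below the named gene, and HAND2 has none.

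The dimer partners and inhibitors of the bHLH factors were read next, on 3 and 4 genes. Over the 20242 promoters, 2226 were above 20 for H3K27me3 and 12887 for H3K4me3 in −Dox cells. On so few genes, no difference from these shares can be claimed. None of the 3 E-protein genes TCF3, TCF4 and TCF12 had H3K27me3 above 20 in −Dox cells, and none of their intervals excluded 1 for either mark. For TCF4, which had neither mark, the table uses a start 47835 bp away from the canonical start, so its values do not describe the main promoter. Of the 4 ID genes, which encode dimerizing inhibitors that lack the basic DNA-binding region, only ID4 was above 20 for H3K27me3. ID4 stood at 21.7 in −Dox and 9.69 in +Dox, and the interval of its ratio, 0.167 to 1.09, included 1. All 4 ID promoters had H3K4me3 above 20 in both conditions, although 1 of them was read at a start over 3 kb from the canonical start.

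Genes of the same branches of the mesoderm were set beside the members, from lists written with earlier results of these data known. Over all promoters 9.42% were bivalent, and an H3K27me3 interval lay below 1 at 6.98% and above 1 at 1.57%. For H3K4me3 these interval shares were 2.94% and 1.7%. Some windows lay away from the main promoter. The start in use was over 3 kb from the canonical start at 3 of 12 heart, 1 of 14 somite and 3 of 12 blood and endothelial genes. The class counts of these lists carry that limit. Of the heart genes, 4 of 12 were bivalent, and TBX5 was the one with an H3K27me3 interval below 1. TBX5, a cardiac and forelimb regulator, had H3K27me3 of 127 before and 59.3 after induction, so it fell by a ratio of 0.468 (0.324 to 0.668), and its H3K4me3 rose from 30.5 to 81.3, a ratio of 2.67 (1.71 to 4.23). At ISL1, a marker of the second heart field, H3K4me3 rose from 20.8 to 39.1, a ratio of 1.88 (1.05 to 3.45), with H3K27me3 values of 62.4 and 57.8. Among the heart genes above 20 for H3K27me3 in −Dox cells, GATA6 had the highest ratio, 1.09 (0.857 to 1.39).

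Of the somite genes, 8 of 14 were bivalent, 6 had an H3K27me3 interval below 1 and 2 above 1. The 6 were all among the 8 bivalent promoters. Over the whole bivalent class, 48% had an interval below 1 and 2.15% above 1. Those below were DLL1, DLL3, FOXC1, HES7, MEOX2 and RIPPLY2, among them Notch ligands and an oscillating target of the segmentation clock, with ratios from 0.292 at DLL1 to 0.679 at MEOX2. Those above were UNCX and PAX1, factors of the sclerotome, with ratios of 1.57 (1.23 to 2.01) and 1.27 (1.06 to 1.53). Only RIPPLY2 and UNCX had an H3K4me3 interval that excluded 1, both below it. Of the blood and endothelial genes, 4 of 12 were bivalent. FLI1, an ETS factor of blood and endothelium, held 192 units of H3K27me3 before and 95.1 after induction. This was a fall by a ratio of 0.496 (0.371 to 0.658), measured at a start 7537 bp away from the canonical start. Its H3K4me3 ratio was 1.77 (1.07 to 2.96). GFI1 had the highest H3K27me3 ratio among the genes of that list above 20 in −Dox cells, 0.974 (0.725 to 1.31).

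Other bHLH genes were used to see how far the pattern belongs to the protein family. In the related group, 11 of 12 listed genes were in the table, 4 were bivalent, and MSC, also called musculin, was the one with an H3K27me3 interval below 1, at 0.550 (0.340 to 0.875). FERD3L had the highest ratio there among genes above 20 in −Dox cells, 1.06 (0.751 to 1.49). In the neurogenic group 11 of 15 were bivalent, beside 9.42% of all promoters. Its H3K27me3 intervals lay below 1 at ATOH7, NEUROG1, NEUROG2, NEUROG3, OLIG1 and OLIG3 and above 1 at none. Among all bivalent promoters the shares were 48% and 2.15%. NEUROD2 had the highest ratio of the neurogenic genes above 20 in −Dox cells, 1.43 (0.922 to 2.23). The median log2 H3K27me3 ratio of the bivalent promoters was −0.52 in the mesodermal and −0.53 in the neurogenic group. For H3K4me3 the corresponding medians were 0.27 and −0.12. Neurogenic H3K4me3 intervals lay below 1 at NEUROD1 and NEUROG1, beside 9.86% of bivalent promoters. No test of the difference between the groups can be had from 1 library each.

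**Figure D5:**
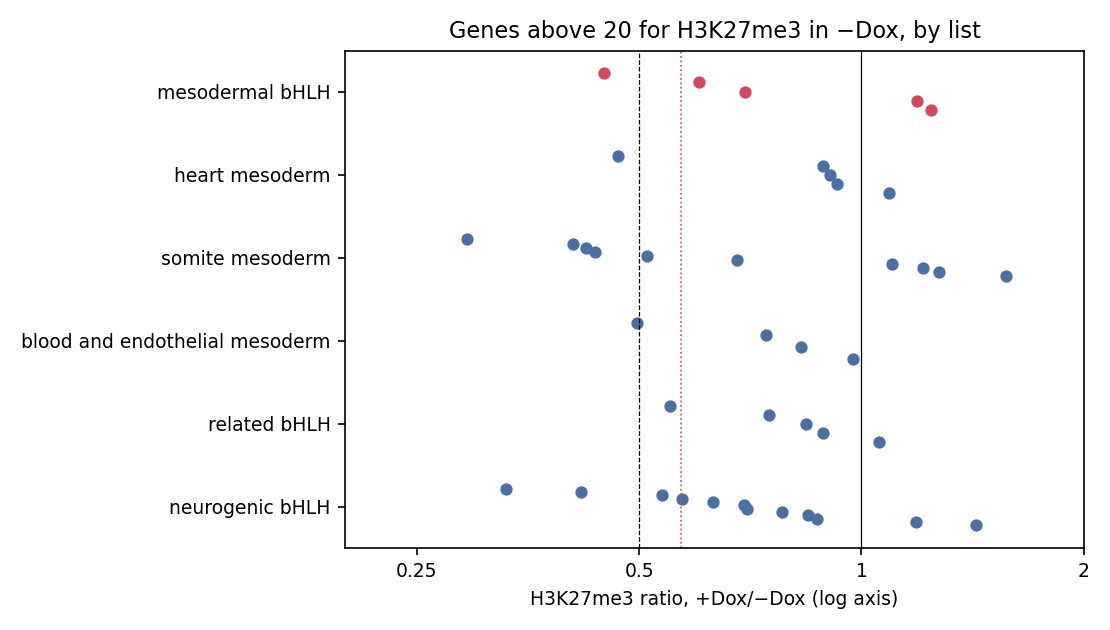
H3K27me3 +Dox/−Dox ratio (log axis) of every gene above 20 for H3K27me3 in −Dox cells, by list, 1 point per gene, from 1 library per condition. The solid line marks 1, the dashed line 0.5 and the dotted line the median of bivalent promoters, 0.570. The mesodermal bHLH genes, in red, fall into 3 points between 0.448 and 0.695 and 2 points above 1.

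For each member the promoter most like it was sought, as the smallest Euclidean distance in log2(value + 1) over the 4 libraries. HAND1 was nearest to OLIG2, at a distance of 0.26, a neural bHLH gene whose H3K27me3 values were 196 and 232. HAND2 was nearest to DMRT3 (0.27), TAL1 to TRIM36 (0.13), TCF21 to ZNF536 (0.22) and TCF15 to CR2 (0.41). MESP1 was nearest to RHCG (0.19), MSGN1 to LIMD1 (0.14) and the MESP2 region to AC104534.3 (0.16).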

How the data were processed

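H3K27me3 and H3K4me3 ChIP-seq libraries of JMJD3c-hESCs, 1 library per mark and condition, were analysed as deposited. The authors ran a MiSeq in single-end mode, aligned to hg19 with Bowtie2 and removed mitochondrial reads, and the submitters' processing notes also name CASAVA 1.4. The deposited values are signal, that is ngs.plot coverage, scaled by the authors to the reads of the library and summed over 3 kb on each side of the start. In the methods a scaling to the density beyond transcript ends is also named, and whether it entered these values is not given in the sources used here. Versions of Bowtie2 and ngs.plot are not given there either. No input library was used, so values include background.

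The +Dox/−Dox ratio was computed without a pseudocount. Reads were approximated by dividing a value by the library's step and by the mean number of steps, 3.34 to 3.41, of promoters lying at 3 or 4 steps, and were used only for 95% intervals: exact Poisson for a level, Clopper-Pearson for a ratio and the conditional exact interval for a ratio of ratios. A value counted as a whole multiple within 0.001 of a step. The intervals cover counting error only, since no library was repeated and reads are not independent molecules. "Rose" and "fell" refer to values relative to library reads and are used where the ratio interval excludes 1. An interval compares 2 libraries, not 2 conditions, and no p-value is given. The ratio interval was tested only on simulated Poisson counts, which follow the model of the interval itself. That test checked the calculation. It did not cover the approximation of reads or variation between libraries.

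Starts were taken from GENCODE 44 mapped to GRCh37, which matched 18244 transcripts (90.1%). The genes and lists were chosen with earlier results of these data known. All 8 members are named. From the lists of partners, inhibitors, mesoderm and other bHLH genes come those with the lowest and highest H3K27me3 ratio above 20 in −Dox. Those whose interval excludes 1 with a value above 20 are also named. Markers of early mesoderm, endoderm and neuroectoderm were read too and are not described, and of the pluripotency markers only POU5F1 is named. Genes within 100 kb are named as described. Other scalings, a pseudocount of 5 and other class thresholds were tried. Python 3.11.15, numpy 2.4.6, pandas 2.3.3, scipy 1.17.1 and matplotlib 3.10.9 were used.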

Additional observations from a re-analysis of the deposited data

How the results depend on the processing

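With both libraries of a mark scaled to the same total, H3K27me3 ratios were multiplied by 1.18 and H3K4me3 ratios by 1.03. The summed H3K27me3 ratio over the members became 1.16, and the members with an H3K27me3 ratio below 0.5 numbered 1, as they did with a pseudocount of 5, because TCF15 moved to 0.527 and 0.510. The H3K27me3 interval then lay below 1 only at MESP1 and above 1 at HAND1 and HAND2. With a median ratio of 1 over low promoters, the factors were 1.06 and 0.934, and the interval lay below 1 at MESP1, TCF15 and TCF21 and above 1 at HAND1 and HAND2. With a class threshold of 30, 3 members were bivalent, and with one of 10, 6 were. Of 22 recomputed summary values 18 stayed within the counting interval of the reported ratio, within the second lowest to second highest member for a median, or within 1.5 times for a count. All 48 values for single genes stayed within their intervals. These intervals are wide beside the factors applied, and calls did change with scaling, so that count does not show stable calls. An alternative added after the data were seen, leaving out MESP2, gave a median log2 H3K27me3 ratio of −0.52. No paired analysis was possible because no group holds more than 1 library, which also leaves no replicate to drop. On 17 to 46 reads, the H3K4me3 ratios of the bivalent members had intervals with upper bounds from 1.11 to 3.15.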
